A study of Glycine max with 22 samples.

Results

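Leaves of soybean (Glycine max) sampled after 5 days of shoot regrowth (R20, n = 3) were compared with leaves sampled at the end of 15 days of bud removal (D15, n = 3). The 6 arrays were taken by their labels from the 22 Affymetrix Soybean GeneChips of the series. In the R20 plants every axillary and terminal bud had been picked off each day for 15 days, starting at an age of 30 days, and buds had then been left to grow out until the plants were 50 days old. The D15 plants had the same 15 days of bud removal, no regrowth, and an age of 45 days. Bud-removed plants with 15 days of regrowth (R30, 60 days old, n = 3) and untreated plants of 50 and 45 days (C20 and C15, n = 3 each) served for orientation. All samples were labelled as mature leaf, from plants kept in growth chambers, and each array holds the RNA of a whole leaf sample with all its cell types. The labels give neither the number of plants behind a sample nor whether replicates came from separate plants, so p-values measure only the spread between these samples, which may be technical.

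Mature leaves export sugars and amino compounds to growing buds, which act as sinks. Soybean leaves deprived of sinks are known to store nitrogen as vegetative storage proteins, vacuolar glycoproteins encoded by VSPA and VSPB, together with lipoxygenases that share this storage role. These reserves are known to be drawn on when growth resumes. The comparison asks how far the leaf transcripts had moved back within the first days after bud removal stopped.

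The values are signals on the deposited linear scale, 1 per probe set, a group of short probes for 1 transcript or a few related ones. An array's floor was the signal below which 95% of its oomycete and nematode probe sets lay, since soybean RNA should leave these dark. Of 37593 soybean probe sets, 32776 passed this floor on 3 or more arrays and entered the test. All 9 leaf marker genes, of photosynthesis, lay above the floor on every array of both groups, with summed signals of 41028 to 42967 in R20 and 40171 to 50182 in D15. Of 16 nodule marker genes 3 were above the floor on every array of either group, as were 5 of 35 seed, 11 of 12 shoot tip and 1 of 6 flower marker genes. Summed signals of R20 and D15 overlapped for the nodule (341 to 579 and 389 to 662), seed (5221 to 6233 and 5388 to 6755) and shoot tip markers (7811 to 11935 and 9082 to 11510.1), and for the flower markers they did not (1379 to 1544 and 555 to 808). Nearly all of the flower sum came from 1 gene, AGL3L, with means of 1411 in R20 and 615 in D15. In each group 4 of the 6 flower markers were above the floor on no array. The part of such other tissues in the results was not tested.

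The groups differed in array quality as well as in treatment time. The ratio of the hybridisation controls BioC and BioB was 2.39 to 2.52 on the R20 arrays and 0.975 to 1.03 on the D15 arrays, so this ratio, plant age and regrowth cannot be told apart in the comparison. The untreated arrays showed the same gap, with 2.53 to 2.89 in C20 and 1.02 to 1.16 in C15. The ratio of 3' to 5' actin signal, which is high where RNA is degraded, was 3.63, 4.35 and 136 on the R20 arrays, against 2.29, 2.94 and 7.29 on the D15 arrays. R20 replicate 3 was thus far from the rest, with a median soybean signal of 38.2 where the other 21 arrays had 57.1 to 81.3. Over all tested probe sets its log2 signals correlated with the other R20 arrays at 0.810 and 0.816, while those 2 arrays correlated at 0.961. D15 replicate 3 correlated with the other D15 arrays at 0.913 and 0.923, which correlated at 0.957.

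None of the 32776 probe sets passed the test at an adjusted p under 0.05 (0.0%, limma with Benjamini-Hochberg adjustment, smallest adjusted p = 0.0708). At an unadjusted p under 0.05 there were 4947 probe sets (15.1%), of which 1596 were higher in R20 (4.87%) and 3351 lower (10.2%). The median log2 difference, R20 minus D15, was -0.15 over all probe sets, and after centring each array on its median it was 0.05, with 2514 higher and 2193 lower at that p. Under quantile normalization it was 0.01, with 2154 higher and 2658 lower. A probe set's 95% interval reached a median of 1.11 log2 units to either side. Same-numbered arrays of R20 and D15 deviated from their group means with correlations of 0.322, 0.105 and 0.364. R20 replicate 2 correlated more with D15 replicate 1 (0.273), and between R20 and C20 the same numbers gave -0.108, -0.046 and -0.129. A block shared by all groups thus had little basis in these values. With the replicate number as such a block 226 probe sets passed (0.69%), 78 higher in R20 (0.238%) and 148 lower (0.452%). The block was fitted over all 22 arrays, and on the 6 arrays of R20 and D15 alone none passed with or without it. The count without a block was 8 without R20 replicate 1 (all lower), 26 without R20 replicate 3 (0.0793%, 13 higher and 13 lower) and 62 without D15 replicate 3 (0.189%, 30 higher and 32 lower). Of the 226 blocked calls, 7 also passed, unblocked, without R20 replicate 3 and 40 without D15 replicate 3. With C0 replicate 4, C15 replicate 1 and R20 replicate 3 left out together 728 passed (2.22%), 136 of the 226 among them. All R20 arrays lay above all D15 arrays for 9.37% of the probe sets and below them for 12.7%.

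The storage protein genes stood at near-equal mean signals 5 days into regrowth. VSPB had signals of 10830.0, 11407 and 13004 on the R20 arrays, against 10066, 12944 and 11724 on the D15 arrays. VSPA had 7903, 8190.2 and 11359 in R20, against 7777, 9539 and 9701 in D15. The groups overlapped for both genes and every one of the 6 arrays was high, while the C20 arrays lay at 27.2, 29.7 and 18.3 for VSPB and 10.6, 31.1 and 25.7 for VSPA. The log2 difference was 0.02 ± 1.51 (± its standard error, as for all fitted differences) for VSPB, with a 95% interval of -3.13 to 3.18, and 0.01 ± 1.35 for VSPA, with an interval of -2.80 to 2.83. The fit pools the spread of all groups, and the C15 arrays for VSPA had 3542, 134 and 42.9. Of the 7 VSPA probe sets 6 had differences below 0, down to -0.91, as had 2 of the 3 VSPB probe sets, down to -0.29. Since VSPA and VSPB are related, a probe set of one may also bind the other's transcript, and whole-leaf arrays cannot tell fewer cells of a type from less RNA per cell.

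Lipoxygenases, which oxidise polyunsaturated fatty acids and of which several are leaf storage proteins, lay at levels like those of D15. All 7 measured genes had differences between 0.14 and 0.41, beside 42.5% of all probe sets with a difference above 0. None had an unadjusted p under 0.05, beside 15.1% of all probe sets, and the list's median was 0.19. Other probe sets of these genes went both ways, since LOX1.4 had 4 of 5 below 0, down to -1.38, LOXB1 3 of 4 and LOX9 2 of 5. LOXB1 had the smallest p, with signals of 11341, 12379.5 and 21508 in R20, against 9745, 13407 and 15603 in D15 (0.19 ± 0.27, 95% interval -0.37 to 0.75, adjusted p = 0.765). R20 replicate 3 was the highest of the 6 arrays for LOXB1, and without it the list's median was -0.07. LOX7 had 9462, 10393 and 15452 in R20, against 8864, 11119.6 and 11386 in D15, and LOX10 had 4872, 5760.0 and 8643, against 3119.7, 5450.5 and 6019. For VLXC alone the groups did not overlap, at 7342, 7982 and 7316 in R20 and 5946, 6618 and 6813 in D15, a difference of 0.23 ± 0.53. Of all probe sets 9.37% had all R20 arrays above all D15 arrays. Signals of related lipoxygenase genes may include each other's transcripts.

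**Figure D1:**
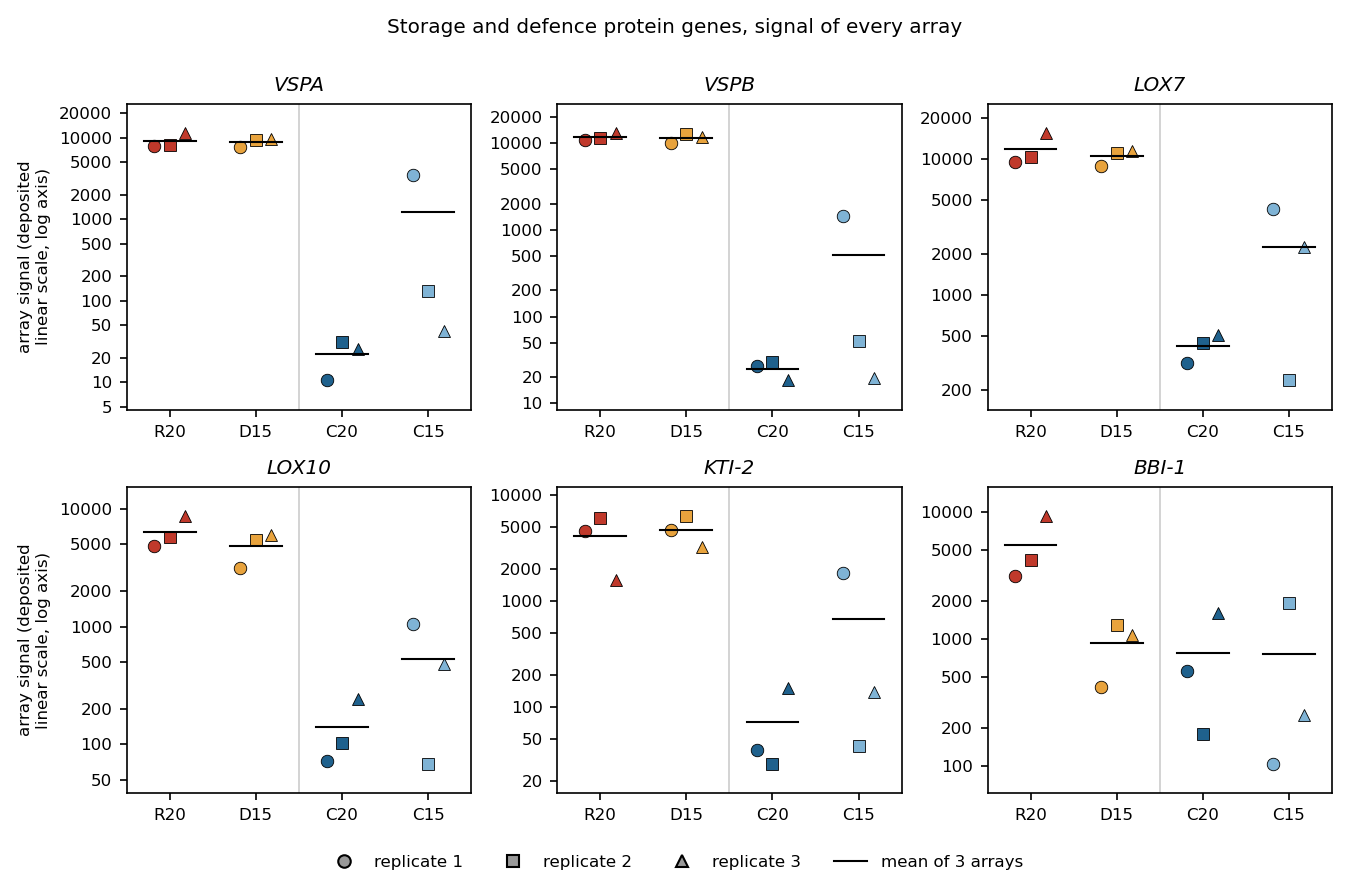
Signal of every array (points, log axis, deposited linear scale) for 6 storage and defence protein genes in R20, D15, C20 and C15, with the mean of 3 arrays as a bar. R20 and D15 overlap in each panel but that of BBI-1, whose 3 R20 arrays lie at 3155 to 9281 and whose D15 arrays lie at 421 to 1304.

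Protease inhibitors, which block digestive enzymes of herbivores, were measured for the Bowman-Birk gene BBI-1, the Kunitz genes KTI-2 and KTI-3, and CYSTATIN. The median of these 4 was -0.34, and 0.07 without R20 replicate 3, with 3 below 0, beside 57.5% of all probe sets. BBI-1 had signals of 3155, 4205 and 9281 in R20, against 421, 1304 and 1084 in D15. All R20 arrays lay above all D15 arrays, but the difference of 2.56 ± 1.06 did not pass (adjusted p = 0.265). KTI-2 had 4591, 6116 and 1570.1 in R20, against 4678, 6275 and 3190.4 in D15 (-0.36 ± 1.02, 95% interval -2.50 to 1.78), and KTI-3 differed by -0.32 ± 0.96. Both Kunitz genes overlapped between the groups, and R20 replicate 3 was lowest for each. Without that array the difference of KTI-2 turned to 0.22, and with the actin ratio as a covariate it was 0.48. CYSTATIN had 687, 594 and 792 in R20, against 993, 1008 and 882 in D15, without overlap (-0.48 ± 0.26, adjusted p = 0.379). None of 9 genes of jasmonate synthesis and signalling, the wound hormone pathway, had an unadjusted p under 0.05, beside 15.1% of all probe sets. Their median was -0.28, or -0.09 under median centring and 0.02 without R20 replicate 3. COI1, the jasmonate receptor subunit, came closest, with 589, 584 and 323 in R20 against 690.2, 689.9 and 616 in D15 (-0.47 ± 0.25, adjusted p = 0.385). The signals of COI1 did not overlap, yet R20 replicate 3 stood far below the other R20 arrays, and without it the difference was -0.18.

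Outside the storage group 9 genes passed with the replicate block on the probe set that stands for them, and none without it. These were 9 of 1013 tested genes with an informative symbol, beside 0.69% of all probe sets that passed with the block. Passing with the block was itself a reason to name a gene. Of the 226 blocked calls 14 probe sets belonged to a gene with an informative symbol. All but 1 of the 226 had R20 and D15 arrays that did not overlap, beside 22.1% of all probe sets. The calls were chosen by the same values, so this is no separate support for them. GSTU1, a tau class glutathione S-transferase, an enzyme class that joins glutathione to reactive compounds, had 2309, 2157 and 3003 in R20, against 913, 1279 and 1111 in D15. Each R20 array lay above each D15 array by a wide margin (1.17 ± 0.26, adjusted p = 0.0909, and 0.0489 with the block). In C20 against C15 GSTU1 differed by 0.56 ± 0.26. AGL3L, a MADS-box transcription factor gene and the one flower marker above the floor on every array, had 1354, 1369 and 1511 in R20, against 541, 537 and 768 in D15 (1.21 ± 0.28, adjusted p = 0.094, and 0.045 with the block). The R20 arrays of AGL3L were tightly grouped and well above the D15 arrays. A second probe set of SRC1, a gene of cold response, had 286, 359 and 328 in R20, against 65.4, 79.1 and 132 in D15 (1.86 ± 0.36, adjusted p = 0.0708, and 0.0331 with the block), while the one that stands for the gene in the lists differed by 0.68 ± 0.28.

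Of the blocked calls 148 were lower in R20, and the block without R20 replicate 3 gave 841 calls, 401 higher and 440 lower. PEPC16, a phosphoenolpyruvate carboxylase, an enzyme that feeds carbon skeletons for amino acid synthesis, had 289.7, 231 and 122 in R20, against 702, 493 and 449.7 in D15. Both groups were spread but did not overlap, and R20 replicate 3 was lowest (-1.41 ± 0.35, adjusted p = 0.108, and 0.0331 with the block). The alanine aminotransferase gene ALAAT1, whose enzyme exchanges amino groups between alanine and glutamate, had 129, 96.7 and 112 in R20 and 349, 392.2 and 402 in D15 on the probe set that passed (-1.76 ± 0.31, adjusted p = 0.0708, and 0.0332 with the block). Its other probe set, which stands for the gene in the lists, gave -1.14 ± 0.30 with an adjusted p of 0.0731 with the block. PGM, counted here with sucrose and starch genes, had 206, 182 and 220.1 in R20, against 436, 414 and 530.1 in D15 (-1.17 ± 0.27, adjusted p = 0.0919, and 0.0466 with the block), and its other probe set differed by 0.38. SIP1-3, a small aquaporin of the membrane, had 341, 261 and 99.6 in R20, against 745, 711 and 437 in D15 (-1.56 ± 0.43, and an adjusted p of 0.045 with the block). On R20 replicate 3 SIP1-3 was far below both other R20 arrays, and without that array the difference was -1.04.

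CYP77A3, a cytochrome P450 gene, had 56.8, 37.2 and 65.9 in R20, against 215, 179 and 183 in D15, with the groups well apart (-1.87 ± 0.63, and an adjusted p of 0.0426 with the block). GASA11, a gibberellin-regulated gene, stayed under the floor on all R20 arrays and had 190.0, 95.9 and 69.4 in D15, so it was at least 6.12-fold lower in R20 (adjusted p = 0.205, and 0.049 with the block). VTE5, the phytol kinase gene that feeds tocopherol synthesis, had 159.5, 123 and 86.3 in R20, against 327, 255 and 249 in D15 (-1.200 ± 0.32, and an adjusted p of 0.0443 with the block). The ubiquitin gene SUBI-1 had 6234, 5243 and 2887 in R20, against 8725, 9897 and 8267 in D15 (-0.97 ± 0.25, and an adjusted p of 0.0443 with the block). R20 replicate 3 was lowest for VTE5 and SUBI-1 and highest for CYP77A3, and without it SUBI-1 differed by -0.64. Other probe sets of SUBI-1 differed by -0.39 and -0.36, with overlap. In C20 against C15 the differences were -1.02 ± 0.63 for CYP77A3, -0.47 ± 0.25 for SUBI-1 and 0.20 ± 0.32 for VTE5. GASA11 averaged 6.88 in C20 and 44.4 in C15. Beyond the untreated change CYP77A3 differed by -0.85 ± 0.89, SUBI-1 by -0.51 ± 0.35, GASA11 by -2.09 ± 1.80 and VTE5 by -1.40 ± 0.45. ADC, the arginine decarboxylase gene of polyamine synthesis, and GF14C, a 14-3-3 protein gene, passed with the block on 1 of their 5 and 1 of their 2 probe sets, at -2.81 ± 0.91 and -1.17 ± 0.30. Every other probe set of ADC and GF14C also had a difference below 0. A dim probe set of the transcription factor gene WRKY63 passed likewise, but was under the floor on all R20 arrays and on 1 of the 3 D15 arrays.

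**Figure D2:**
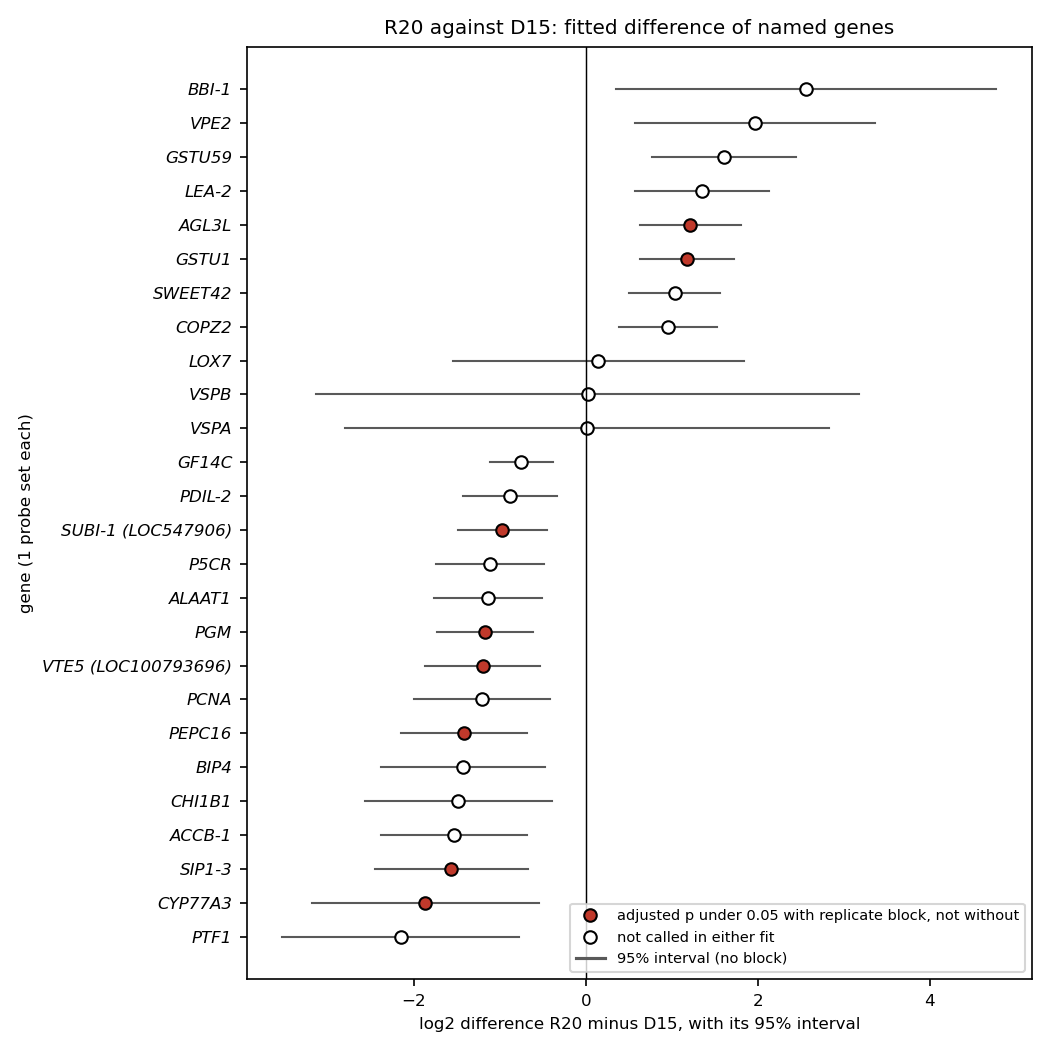
Log2 difference R20 minus D15 (points) with 95% limma intervals (lines) for 26 named genes, 1 probe set each. Filled points passed with the replicate block and not without it, and no open point passed in either fit. The intervals of VSPA and VSPB run from -2.80 to 2.83 and from -3.13 to 3.18, and those of the filled genes leave out 0.

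In nitrogen metabolism 20 genes of nitrate, ammonium, urea and ureide use were measured. At an unadjusted p under 0.05, 1 was higher and 3 were lower, beside 4.87% and 10.2% of all probe sets. The median was 0.29, or 0.12 with genes not above the floor at their bound. NRT1-3, of the nitrate transporter family, had 2013, 2066 and 5839 in R20, against 829, 871 and 2375 in D15 (1.27 ± 0.46, adjusted p = 0.212). D15 replicate 3 overlapped with R20 for NRT1-3, which differed by 0.77 without R20 replicate 3. Glutamine synthetases, which fix ammonium, included 2 of the 3 lower genes. GS had 107, 74.4 and 126 in R20, against 159, 199.8 and 291 in D15, without overlap (-1.06 ± 0.33, adjusted p = 0.168), and GS1alpha differed by -1.16 ± 0.49. Other probe sets of GS differed by -0.37 and -0.02. The plastid form GS-2 had 4764, 4787 and 6791 in R20, against 5891, 6783 and 8229 in D15 (-0.36 ± 0.34, 95% interval -1.07 to 0.34). The third was the nitrate reductase gene INR1, described with the untreated plants.

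The amino acid, carbon and sugar lists are given beside 4.87% higher and 10.2% lower of all probe sets. Of 27 amino acid genes 1 was higher and 4 lower at an unadjusted p under 0.05, with a median of -0.16 that was 0.03 under median centring and 0.13 without R20 replicate 3. Beside ALAAT1 the lower genes included P5CR, pyrroline-5-carboxylate reductase of proline synthesis, with 284, 287 and 226 in R20 against 689.6, 681 and 397 in D15 (-1.11 ± 0.30, adjusted p = 0.133). OAS-TL7, of the enzymes that make cysteine, was the higher one, with 3565, 3891 and 5849.5 in R20 against 1391, 1616 and 3096 in D15 (1.18 ± 0.40, adjusted p = 0.194). The groups did not overlap for either gene. In carbon metabolism, the sucrose and starch list had 2 of 14 genes higher and 1 lower at that p (median 0.14), with the beta-amylase BMY1 at 1.03 ± 0.44 and PGM as the lower gene. Other probe sets of BMY1 differed by 0.27 and 0.28. SWEET42, of the sugar efflux carriers, had 545, 600.0 and 552 in R20, against 249.7, 271 and 309 in D15, with tight groups (1.03 ± 0.25, adjusted p = 0.101, and 0.0527 with the block). Of 11 sugar transport genes 2 were higher and none lower at an unadjusted p under 0.05, while for 5 of the 11 all 3 arrays of R20, of D15 or of both were under the floor. Of 9 genes of PEP carboxylase and its kinases, a list added after values were seen, none was higher and 2 were lower at that p, PEPC16 and the kinase gene PPCK2 (-1.31 ± 0.54), with a median of -0.49.

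Fatty acid and lipid genes pointed both ways, with 2 of 26 higher and 3 lower at an unadjusted p under 0.05 (median -0.06). Of all probe sets 4.87% were higher and 10.2% lower at that p, a share that also stands beside the photosynthesis list. The lower genes were ACCB-1 and ACCB-2, of the biotin carrier of plastid acetyl-CoA carboxylase, and DGAT1A, which makes triacylglycerol. ACCB-1 had 98.01, 66.6 and 66.9 in R20, against 370.0, 276 and 105 in D15, and D15 replicate 3 was close to the R20 arrays (-1.53 ± 0.40, adjusted p = 0.127). ACCB-2 differed by -1.21 ± 0.45, and ACCA-1 of the same enzyme family was higher, at 1.097 ± 0.38. Of 17 genes of photosynthesis and chlorophyll synthesis 1 was higher and 1 lower (median -0.22, -0.03 under median centring and -0.07 without R20 replicate 3). RCABETA, a Rubisco activase gene, had 567, 485 and 499 in R20, against 217, 337 and 189.8 in D15, without overlap (1.098 ± 0.41, adjusted p = 0.218). PETC, of the electron transport chain between the photosystems, had 4399, 3699.5 and 1975 in R20, against 5727, 6452 and 4919.5 in D15 (-0.83 ± 0.33, and -0.49 without R20 replicate 3).

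Genes of protein folding in the endoplasmic reticulum were mostly at lower signals in R20. Of 8 ER chaperone and protein disulfide isomerase genes none was higher and 4 were lower at an unadjusted p under 0.05, beside 10.2% of all probe sets, with a median of -0.82 (-0.63 under median centring and -0.67 under quantile normalization). The chaperone gene BIP4 had 279, 388 and 730.3 in R20, against 1938, 1547 and 516 in D15. D15 replicates 1 and 2 were high and D15 replicate 3 lay within the R20 range (-1.43 ± 0.45, adjusted p = 0.172). BIP2 had 28.8, 42.8 and 127 in R20, against 203, 209 and 102 in D15 (-1.58 ± 0.52), with the same overlap at replicate 3. PDIL-2 had 477, 549.7 and 491 in R20, against 1164, 979 and 704 in D15, without overlap (-0.88 ± 0.26, adjusted p = 0.149), and PDIM-1 differed by -0.77 ± 0.34. Without R20 replicate 3 the differences were -1.81 for BIP4, -1.26 for PDIM-1 and -2.19 for BIP2, and the list's median was -0.59. PDIL-1 of the same list differed by 0.05 ± 0.32, with a 95% interval of -0.62 to 0.72. Among 5 heat shock genes none was higher and 2 were lower at an unadjusted p under 0.05, HSP23.9 (-1.01 ± 0.43, 312, 343 and 635 in R20 against 959, 911 and 635 in D15) and HSP90A1 (-0.99 ± 0.47), with a list median of -0.79, or -0.44 without R20 replicate 3.

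All 7 measured senescence and chlorophyll breakdown genes had differences above 0, beside 42.5% of all probe sets. At an unadjusted p under 0.05, where 4.87% of all probe sets were higher, 2 were higher, VPE2 and the cysteine protease gene CYSP1, and the median was 1.08. That median was 1.82 without D15 replicate 3, 1.28 under median centring, 1.34 under quantile normalization and 0.92 with CYSP1, above the floor on 1 R20 array and no D15 array, set to its bound. VPE2, a vacuolar processing enzyme that matures other proteases, had 1986, 1473 and 7151 in R20, against 414, 527 and 1587 in D15 (1.97 ± 0.67, adjusted p = 0.194, and 0.0549 with the block). Replicate 3 was the highest array of each group for VPE2, and D15 replicate 3 lay within the R20 range. SGR2, a stay-green gene that acts in chlorophyll breakdown, had 697, 686 and 1594 in R20, against 202, 293 and 645 in D15, just without overlap (1.44 ± 0.79, 95% interval -0.22 to 3.09). SARK, a senescence-associated receptor kinase gene, overlapped, with 391, 266 and 565 in R20 against 148, 80.6 and 716 in D15 (0.92 ± 0.72). In untreated leaves VPE2 had 8549, 8019.6 and 8155 in C20 and 3336, 10683 and 10017 in C15. R20 replicate 3 is the array with the actin ratio of 136, and its part in these values was not tested. Without it VPE2 differed by 1.28 and SGR2 by 1.03, and the list's median was 1.03.

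**Figure D3:**
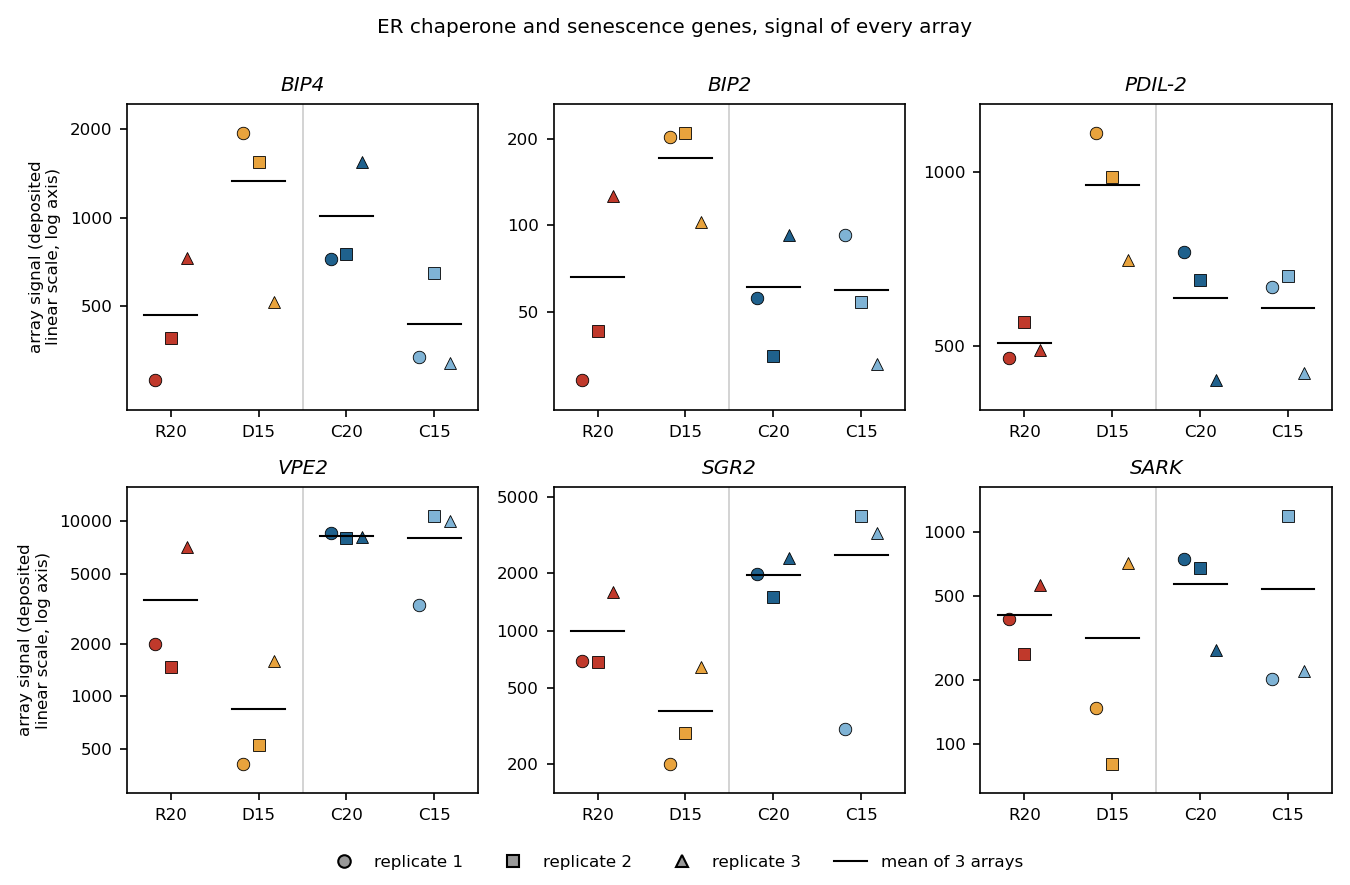
Signal of every array (points shaped by replicate number, log axis, deposited linear scale) for 3 genes of protein folding and 3 of senescence in R20, D15, C20 and C15, with the mean of 3 arrays as a bar. Replicate 3 of D15 lies nearest to the R20 arrays for BIP4, BIP2, PDIL-2, VPE2 and SGR2.

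Flavonoid genes, which make pigments and isoflavones, were mostly at lower signals in R20. Of 19 core pathway genes none was higher and 3 were lower at an unadjusted p under 0.05, beside 4.87% and 10.2% of all probe sets. Differences were below 0 for 17, beside 57.5% of all probe sets. For 8 all R20 arrays lay below all D15 arrays, beside 12.7% of all probe sets. The median was -0.82, and -0.44 without R20 replicate 3. In untreated leaves, C20 against C15, the median was -0.68, with none higher and 3 lower at that p. The difference beyond the untreated change had a median of -0.28, with 1 higher and 1 lower. The chalcone isomerase gene CHI1B1 had 76.6, 83.1 and 73.9 in R20, against 223, 254 and 185 in D15 (-1.48 ± 0.52, adjusted p = 0.205), and its other 3 probe sets were also below 0. CHI2-A had 351, 377 and 977 in R20, against 1077, 1735 and 1658 in D15 (-1.53 ± 0.63), and the coumarate ligase gene 4CL4 differed by -1.59 ± 0.70. The chalcone synthase gene CHS8, first enzyme of the branch, had 4299, 4960.4 and 6286 in R20, against 4928, 5734 and 5399 in D15, with a 95% interval of -1.63 to 1.51. Of 24 isoflavonoid and pterocarpan genes none was higher and 2 were lower at that p, 22 lay below 0, beside 57.5% of all probe sets, and the median was -0.91, or -0.84 with genes not above the floor at their bound. Their median in C20 against C15 was -0.29, and beyond that change it was -0.36. G4DT, the prenyltransferase of glyceollin synthesis, had the smallest p, with 19.6, 18.9 and 0.58 in R20 against 158, 51.7 and 17.6 in D15 (-2.64 ± 0.99, adjusted p = 0.228). Its arrays overlapped, and the lowest, R20 replicate 3, was below the floor, and without that array it differed by -1.41. Of 6 saponin genes none had an unadjusted p under 0.05, with GmCSyGT3 closest at 0.51 ± 0.51.

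Of 36 glutathione S-transferase genes 5 were higher and none lower at an unadjusted p under 0.05, beside 4.87% and 10.2% of all probe sets, with a median of 0.12 that was -0.06 without R20 replicate 3. GSTU59 had 947, 1091 and 1892 in R20, against 270.2, 575 and 444 in D15, without overlap and with R20 replicate 3 highest (1.61 ± 0.40, adjusted p = 0.111, and 0.0685 with the block). GSTZ3 differed by 0.98 ± 0.37, or 0.44 without R20 replicate 3, and its other probe set by 0.13. Of 17 pathogenesis-related genes none was higher and 1 lower, the chitinase gene chib1-a (-2.78 ± 1.196), while 15 of the 17 lay below 0, beside 57.5% of all probe sets (median -0.46). Drought and cold regulators were split, with 5 of 17 higher and 1 lower at that p and a median of -0.37, or -0.02 with genes not above the floor at their bound. LEA-2, a late embryogenesis abundant protein gene of desiccation tolerance, had 3191, 3316 and 3805 in R20, against 949, 1184 and 2167 in D15, with D15 replicate 3 the nearest to R20 (1.35 ± 0.37, adjusted p = 0.134, and 0.0527 with the block). DREB2A2, DREB, ERD15 and SRC1 were the other higher genes, at 1.11, 0.64, 0.67 and 0.68, where SRC1 had 0.37 without R20 replicate 3, and ICE2 was the lower one, at -1.15 ± 0.48.

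**Figure D4:**
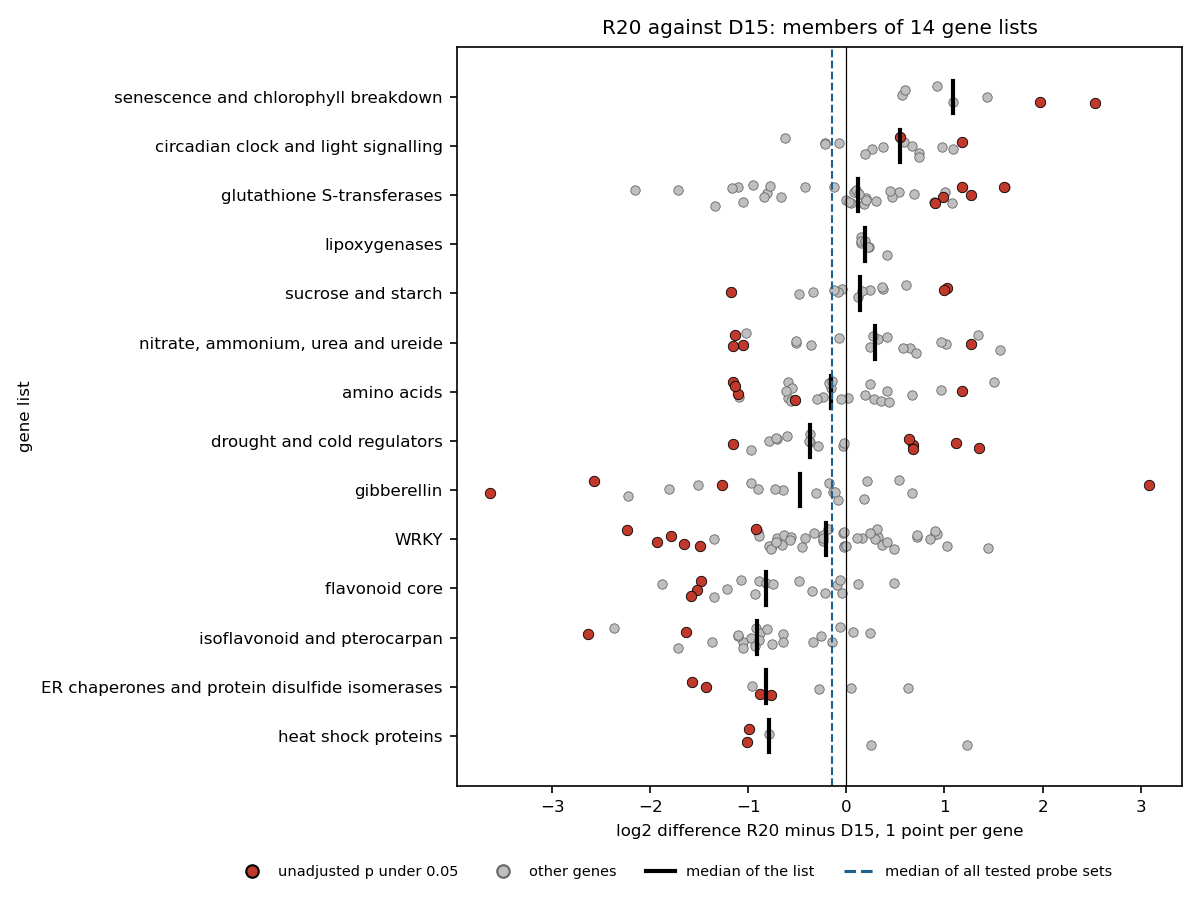
Log2 difference R20 minus D15 of the measured members of 14 gene lists (1 point per gene), with filled red points at an unadjusted p under 0.05, list medians as black bars and the median of all tested probe sets, -0.15, as a dashed line. All 7 senescence genes lie above 0, all 7 lipoxygenases lie within 0.14 to 0.41, and most flavonoid, isoflavonoid and ER chaperone genes lie below 0.

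Transcription factor families are given beside 4.87% higher and 10.2% lower of all probe sets. Of 48 WRKY genes none was higher and 6 were lower at an unadjusted p under 0.05 (median -0.21, and -0.02 under median centring). The probe set that stands for WRKY63 had 67.5, 93.7 and 19.8 in R20, against 508, 252 and 108 in D15 (-2.23 ± 0.89, adjusted p = 0.252), and WRKY21, the member with the smallest p, differed by -1.79 ± 0.67. Of 59 bZIP genes 4 were higher and 6 lower (median -0.01, and 0.16 without R20 replicate 3), with BZIP63 at -1.70 ± 0.52 and BZIP114 at 1.16 ± 0.41. BZIP63 was below the floor on R20 replicate 3, and without that array it differed by -0.74. Of 56 MYB genes 4 were higher and 2 lower (median 0.28, and 0.18 without R20 replicate 3). MYB48 had 384, 325 and 401 in R20, against 772, 787 and 779 in D15, without overlap (-1.08 ± 0.35, adjusted p = 0.175), and MYB121 differed by 1.63 ± 0.72. Of 20 NAC genes 2 were lower and none higher, NAC2 among them at -0.76 ± 0.33, and of 8 ethylene genes 2 were lower and none higher, ERF5 among them at -0.75 ± 0.32.

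Hormone and growth lists gave few genes, and are given beside 4.87% higher and 10.2% lower of all probe sets. Of 20 gibberellin genes 1 was higher and 3 lower at an unadjusted p under 0.05 (median -0.48, and -0.24 with genes not above the floor at their bound). GA2OX6, a gibberellin 2-oxidase, an enzyme that inactivates the hormone, had 331, 452 and 510.4 in R20, against 22.53, 60.3 and 86.0 in D15, without overlap (3.09 ± 1.01, adjusted p = 0.181, and 0.0562 with the block). Its other probe set overlapped and differed by 0.91 ± 0.80. GAI2, of the DELLA repressors of gibberellin response, differed by -1.27 ± 0.43. The lower genes beside it were GASA11 and GASA21, and GASA21 was above the floor on only 1 D15 array and on no R20 array. The auxin list had 1 of 7 genes lower, ADR12 (-1.60 ± 0.54), and of 7 brassinosteroid genes, a list added after values were seen, 2 were lower, the receptor gene BRI1B among them (-1.17 ± 0.35). PCNA, the sliding clamp of DNA replication, was the lower one of 4 cell cycle and replication genes, with 109.9, 128 and 216 in R20 against 425, 431 and 206 in D15 (-1.21 ± 0.38, adjusted p = 0.163). For PCNA the arrays of replicate 3 overlapped, and without R20 replicate 3 the difference was -1.49. Of 10 genes of cell wall loosening 1 was lower, PAE1 (-0.96 ± 0.32, and -0.62 without R20 replicate 3), and of 21 aquaporins 2 were lower, SIP1-3 and SIP1-4 (-1.76 ± 0.59, and -1.07 without R20 replicate 3). Of 15 clock and light signalling genes 2 were higher and none lower (median 0.54, or 0.38 with genes not above the floor at their bound), the photoreceptor genes PHYA (1.18 ± 0.53, and 0.68 without R20 replicate 3) and ZTL1 (0.54 ± 0.25, and 0.30).

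The remaining lists gave at most 2 genes each at an unadjusted p under 0.05. These were PTF1 of the phosphate list (-2.15 ± 0.66, and -1.23 without R20 replicate 3, where it was under the floor, 1 of 17), VTE5 of 14 tocopherol and carotenoid genes, the metallothionein gene MT2 of 5 metal genes (-0.85 ± 0.28), and AGL3L and MFT of 7 flowering genes. Of 5 ribosomal protein genes, a list added after values were seen, 2 were lower, RPL2 and RPS13. RPS13 had 3268, 3175 and 2846 in R20, against 6523, 7502 and 5497 in D15 (-1.06 ± 0.31, adjusted p = 0.142). No gene had an unadjusted p under 0.05 among 2 glyoxylate cycle, 2 cytokinin, 6 sieve element and 3 alternative oxidase genes, where the smallest p belonged to MS (1.35 ± 1.76), CKX3 (0.35 ± 0.67), SEOC (0.75 ± 0.88) and AOX1 (-0.65 ± 0.49). MS was above the floor on 1 array of each group. Over all 41 lists 34 of 620 genes were higher at that p (5.48%) and 61 lower (9.84%), beside 4.87% and 10.2% of all probe sets, so the lists together were near the background.

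In untreated leaves the nitrate reductase genes were lower in C20 than in C15, from plants 5 days younger. The BioC over BioB ratio also differed between C20 and C15, so this ratio and plant age cannot be told apart here. In C20 against C15, which share no array with R20 and D15, 6 probe sets passed (0.0183%), all lower in C20, and 2767 had an unadjusted p under 0.05 (8.44%), 1270 higher (3.87%) and 1497 lower (4.57%), or 668 and 2555 under median centring. The number passing was 2 without C15 replicate 1, 41 without C15 replicate 2, 3 without C20 replicate 2 and 0 in a fit of these 6 arrays alone. They included INR1 and INR2, the nitrate reductases that take the first step of nitrate use, beside LOC100527056 and 3 probe sets without a symbol. INR1 had 67.9, 43.3 and 50.2 in C20, against 888, 1568 and 2407 in C15, a log2 difference of -4.80 ± 0.50 (adjusted p = 0.000241). INR2 differed by -4.74 ± 0.59 (adjusted p = 0.00237), with 94.0, 23.1 and 62.5 in C20 and 727, 1526 and 2471 in C15. In bud-removed plants INR1 had 729.8, 445 and 142 in R20, against 738, 476 and 1410.0 in D15 (-1.14 ± 0.50, adjusted p = 0.29), and INR2 had 929.7, 479 and 426, against 554, 459 and 2146 (-0.51 ± 0.59). Both genes overlapped between R20 and D15, with D15 replicate 3 the highest array of the 6. INR1 differed by -0.47 without R20 replicate 3 and by -0.72 without D15 replicate 3.

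The change of R20 against D15 was set against that of C20 against C15 in 1 test, the interaction, where plant age and the BioC over BioB gap run alike on both sides. No probe set passed (0.0%, limma, smallest adjusted p = 0.177), and 3690 had an unadjusted p under 0.05 (11.3%), 1180 with the higher change in bud-removed plants (3.6%) and 2510 with the lower (7.66%). The median interaction was -0.21 log2 units. Under median centring it was 0.22, with 2602 higher and 1157 lower at that p, and under quantile normalization -0.01, with 1552 and 1706. INR2 had 4.23 ± 0.84 (adjusted p = 0.18, 95% interval 2.48 to 5.98) and INR1 3.66 ± 0.70 (adjusted p = 0.18, 95% interval 2.19 to 5.13), and both missed the threshold. Without R20 replicate 3 INR1 passed, at 4.33 (adjusted p = 0.0281), and INR2 did not, at 4.44 (adjusted p = 0.178). The nitrite reductase gene NIR had 76.5, 68.2 and 45.0 in R20, against 180.1, 124 and 89.9 in D15, and 57.2, 61.3 and 113 in C20, against 255, 204 and 1669 in C15 (interaction 1.56 ± 1.03). The light harvesting genes CAB3 and LHCP, which bind chlorophyll at the photosystems, had interactions of 1.68 ± 0.45 and 2.98 ± 1.01, with adjusted p of 0.309 and 0.358. CAB3 had 12313, 12459 and 15263 in R20, against 9925, 12726 and 14893 in D15, while the C20 arrays lay at 4519.6, 2319 and 6690.4 and the C15 arrays at 15568, 10172 and 11792. LHCP differed by -0.16 ± 0.71 between R20 and D15, with a 95% interval of -1.65 to 1.33.

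For the storage genes the interaction had intervals that include 0, at 2.21 ± 2.14 for VSPB (-2.25 to 6.68) and 3.69 ± 1.90 for VSPA (-0.29 to 7.67). BIP4 had -2.62 ± 0.64 (adjusted p = 0.285), with 723, 755 and 1552 in C20 against 337, 648 and 321 in C15, and ALAAT1 had -1.78 ± 0.42 (adjusted p = 0.285). The drought regulator ERD15 had 1.53 ± 0.39 (adjusted p = 0.296), with signals of 2193, 2136 and 3124 in R20, 1429, 1361 and 1849 in D15, 1649, 1501 and 1017 in C20 and 3013, 2476 and 2009 in C15. GSTU59 had 1.57 ± 0.57 and stood at 89.1, 50.0 and 108 in C20 and 123, 66.1 and 55.1 in C15. Without R20 replicate 3 the interaction count was 2, INR1 among them, and without D15 replicate 3 it was 13.

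**Figure D5:**
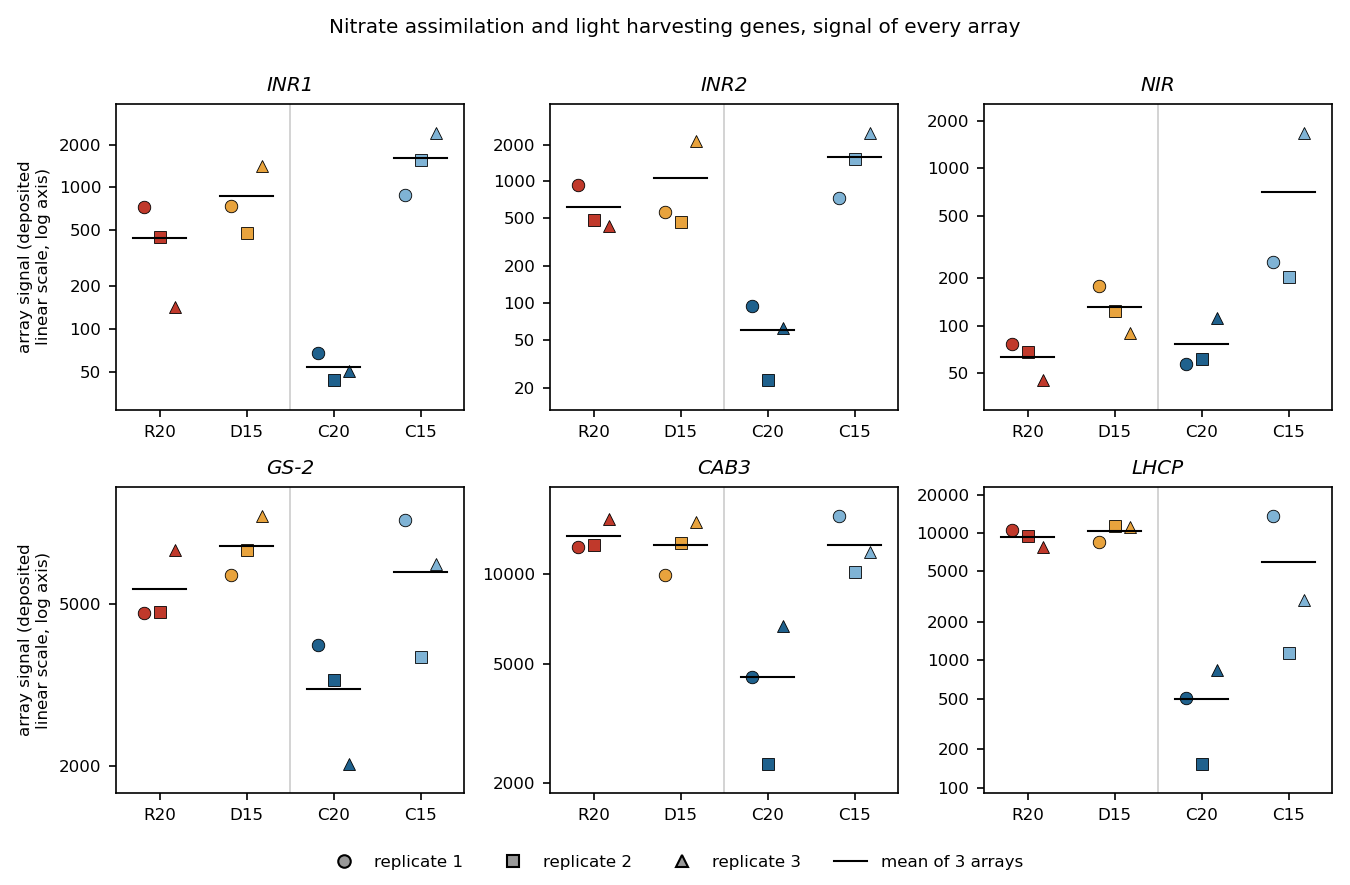
Signal of every array (points, log axis, deposited linear scale) for 4 genes of nitrate and ammonium assimilation and 2 light harvesting genes in R20, D15, C20 and C15, with the mean of 3 arrays as a bar. For INR1 all C20 arrays lie below all other arrays, and for CAB3 and LHCP the C20 arrays lie below the R20 and D15 arrays.

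At 15 days of regrowth the storage genes were still high. VSPB averaged 10584 ± 2339 in R30 and VSPA 8609 ± 1112, LOX7 9983 ± 1063 and KTI-2 4252 ± 2099 (SD, n = 3). BBI-1 averaged 936 ± 459.8 in D15, 5547 ± 3276 in R20 and 8534 ± 3518 in R30. GSTU1 averaged 1101 ± 183 in D15, 2489.8 ± 451 in R20 and 2079.6 ± 182 in R30, with overlap between the R20 and R30 arrays. AGL3L averaged 615 ± 132 in D15, 1411 ± 86.9 in R20 and 834 ± 109 in R30, so its R30 mean lay between the others. The R30 means of PEPC16 (406 ± 24.8), PGM (348 ± 25.7) and ALAAT1 (373 ± 106) also lay between those of D15 and R20. VPE2 averaged 842 ± 647 in D15, 3537 ± 3141 in R20 and 5362 ± 4495 in R30, with overlap between R20 and R30. AG1 averaged 3744 ± 349 in D15, 5998 ± 734 in R20 and 1575 ± 241 in R30. Its fitted difference between R20 and D15 was 0.68 ± 1.25 (limma, adjusted p = 0.83), in a fit that pools the spread of all groups. These levels are a description, and R30 was not tested here.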

How the data were processed

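Total RNA of mature leaves was labelled with biotin and hybridised to 22 Affymetrix Soybean GeneChips, 1 sample each, per the labels' protocols. The authors deposited 1 intensity per probe set on a linear scale, and which program summarised and scaled it is a step not given in the sources used here. Soybean probe sets above the floor on at least 3 arrays were transformed to log2(intensity + 1) from the deposited values. A pseudocount of 1 lies far below the floors, which were 14.4 to 21.8 on the R20 arrays and 15.7 to 16.9 on the D15 arrays. Differences of dim probe sets can therefore rest on signals under the floor and come out too large. limma 3.58.1 in R 4.3.3 fitted 1 mean per group over all 22 arrays (7 groups), with moderated variances that follow signal, Benjamini-Hochberg adjustment over the 32776 probe sets tested and a threshold of 0.05. Contrasts were R20 minus D15, C20 minus C15 and their difference. A ± in a fitted difference is its standard error. Precision is limited by the 3 arrays of each group. The scripts were tested on simulated data.

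Probe sets were named from GEO's platform annotation, with symbols updated through RefSeq gene IDs: 8677 soybean probe sets had 1 symbol, 370 several and 28546 none. A gene was represented by its tested probe set with the highest mean over all arrays. Genes were named by a rule: VSPA and VSPB, called genes with an informative symbol, up to 3 called members of each list or else the member with the smallest p, and the same for the interaction. That rule gave 42 genes, and 86 more were chosen after their values were seen. The members and the gene lists were chosen with earlier results of these data known, and 3 of the 41 lists were added after values were seen.

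Same-numbered R20 and D15 arrays had deviations from their group means that correlated at 0.322, 0.105 and 0.364, so the replicate number was also fitted as a block. The numbers come from the sample titles, which name no shared plant or day, and R20 replicate 2 correlated more with D15 replicate 1 (0.273) than with D15 replicate 2. For C20 and C15 the correlations were -0.003, 0.191 and 0.114, which did not show clear pairs by number. The block was still fitted over all arrays of the series, so same-numbered arrays of every group shared it. Between R20 and C20 the same numbers correlated at -0.108, -0.046 and -0.129. Between D15 and C15 they correlated at 0.157, -0.158 and 0.186, so a block shared by all groups had little basis in these values. Alternatives changed the scaling, pseudocount, filter, variance model, weights, block, actin ratio and the arrays used.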

Additional observations from a re-analysis of the deposited data

How the results depend on the processing

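Counts of probe sets that passed depended on the processing, and the causes were not tested. For R20 against D15 the count of 0 became 23 with a filter for signal above the floor on all arrays of a group, 21 with the actin ratio as a covariate, 226 with the replicate block and 728 with C0 replicate 4, C15 replicate 1 and R20 replicate 3 left out together. It became 13691 with array weights, whose estimation did not converge, and 10794 with gene-by-gene weights. Of the settings chosen after seeing the data, leaving out both replicates 3 gave 22, quantile normalization without R20 replicate 3 gave 54 and the block without R20 replicate 3 gave 841. Leaving out 1 array at a time gave 0 to 62. Other scalings, a pseudocount of 16, no filter, no variance trend and the 6 arrays alone gave 0. For the interaction, array weights gave 6453, gene-by-gene weights 2663, the 3 arrays left out 1, both replicates 3 left out 18, quantile normalization without R20 replicate 3 gave 2, the replicate block 0, and 1 array at a time 0 to 13. For C20 against C15 the 6 calls became 2 with a pseudocount of 16, 2713 and 44 with array and gene-by-gene weights, 0 with its own arrays alone, 10 with the actin ratio, 10 with the block without R20 replicate 3, 8 with the replicate block and 2 to 41 with 1 array left out. Of 128 named genes 106 kept the sign of R20 minus D15 in all 22 alternatives, and the other 22, VSPA and VSPB among them, did not. Of these 128 genes 86 were chosen after their values were seen, and the alternatives used the same arrays. The count of kept signs is thus no separate support for the differences. Dim genes have only bounds, and signal over background limits them.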
